A study of Mus musculus with 6 samples.

Results

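Acp5, Acpp, Acp1 and Acp2 are 4 mouse genes for acid phosphatases, 4 of the 18193 genes that the arrays measured with a probe set annotated to exactly 1 symbol. They were chosen by name and by earlier results of the mutant against wild-type contrast in these same arrays, in which Acp5 and Acpp stood lower in the mutant. All values of that contrast for these genes are therefore descriptions without a test. The genes have 13 probe sets, and the probe set with the highest mean over the 6 arrays represents its gene. A filter kept probe sets brighter than the array median on 3 or more arrays, and 10 of the 13 passed it, as did 22497 of 45037 probe sets in all.

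The mutant group (n = 3 arrays) and the wild-type group (n = 3 arrays) are bone marrow macrophages of C57BL/6 mice that lack both TNF receptors, TNFR1-/-R2-/-. Retrovirus gave the cells of both groups a chimeric receptor, with the external domain of TNFR1 on the membrane and inner domains of RANK, and puromycin at 2 ug/ml selected them for 3 days. In the mutant (Mu) receptor the IVVY motif of RANK carried inactivating mutations, while the wild-type (WT) receptor had it intact. Both groups were then given M-CSF (44 ng/ml) and TNF (10 ng/ml) for 24 hours, and RNA from 6 dishes was pooled for each Mouse Genome 430 2.0 array. The labels describe 3 independent assays. The mutant and wild-type arrays of the same replicate number were taken to share an assay, called assays 1, 2 and 3 here. This pairing is inferred from the replicate numbers and from the correlation of same-numbered arrays, given with the processing below. Where nothing says that the assays used separate animals, the spread between arrays may be partly technical.

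Acid phosphatases remove phosphate groups at low pH, and the name joins unrelated protein families. Acp5 encodes tartrate-resistant acid phosphatase, an iron-containing enzyme that osteoclasts secrete and that serves as their classical stain, and that some macrophages also make. Acp2 encodes the lysosomal acid phosphatase found in most cells, and Acpp the related prostatic acid phosphatase, which has a secreted and a transmembrane form and can release adenosine from AMP outside the cell. Acp1 encodes the low molecular weight protein tyrosine phosphatase of the cytosol, which shares the assay name but not the fold. RANK, the receptor of RANK ligand, drives macrophages towards the osteoclast, and Acp5 is among its best-known targets.

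The label of the cells was checked against marker genes. All 8 macrophage markers measured, among them Csf1r and Cd68, passed the filter, with summed intensities of 132859 to 147539 on mutant arrays, against 137080 to 150732 on wild-type arrays. Of 9 osteoclast markers 7 passed the filter, of which Ocstamp and Calcr did so through the wild-type arrays alone, so that their direction was fixed by the filter. The summed intensities over the 9 were 623 to 1265 in mutant cells, against 4843 to 17955 in wild-type cells. Most of each wild-type sum came from Mmp9, at 1892 to 7992, and Ctsk, at 2354 to 7375. These genes also held some of the lowest differences of the contrast, so the sum mainly describes them. Itgb3 and Oscar did not pass the filter. For Atp6v0d2 the second probe set had mixed directions, at -1.01, 0.57 and -1.20 in assays 1, 2 and 3. Of 8 stromal markers 4 passed, and the sum over the 8 was 60.4, 155 and 4336 on mutant arrays 1, 2 and 3, against 58.7, 79.1 and 3206 on wild-type arrays 1, 2 and 3. Dcn, Lum, Pdgfra and Pdgfrb did not pass. Acp5 was also at its highest on array 3 of each group, and without assay 3 its log2 difference between the groups was -3.55. The part of stromal or osteoclast cells in its values was not tested. In pooled RNA, fewer cells of a type and less RNA per cell cannot be told apart.

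The promoter windows of the acid phosphatase genes are given first, for Acp5 and Acpp because their groups did not overlap, and for Acp2 because its groups did. Each window runs from 250 bases before to 50 bases after an annotated start of transcription, and the sequences are those of RefSeq for GRCm38.p6. Acp5 lies on chromosome 9 at 22126727 to 22135746 and has 3 annotated starts. The window shown is that of the third in the direction of transcription, chr9:22130549-22130848 on the minus strand. The Acpp gene also lies on chromosome 9, at 104288240 to 104337722, and its window is chr9:104337673-104337972 on the minus strand. The Acp2 gene lies on chromosome 2 at 91202812 to 91214098, with its window at chr2:91202662-91202961 on the plus strand. Capitals mark matches to the E-box CANNTG, the type of site that MITF and related factors bind, and to the NFAT core GGAAA on either strand (read as TTTCC in the window when it lies on the other strand).
Acp5: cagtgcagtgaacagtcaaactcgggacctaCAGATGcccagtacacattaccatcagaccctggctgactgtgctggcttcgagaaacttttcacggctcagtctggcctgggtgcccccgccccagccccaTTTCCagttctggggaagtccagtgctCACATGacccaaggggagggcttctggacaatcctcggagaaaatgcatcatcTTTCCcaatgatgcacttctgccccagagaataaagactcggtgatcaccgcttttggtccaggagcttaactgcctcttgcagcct
Acpp: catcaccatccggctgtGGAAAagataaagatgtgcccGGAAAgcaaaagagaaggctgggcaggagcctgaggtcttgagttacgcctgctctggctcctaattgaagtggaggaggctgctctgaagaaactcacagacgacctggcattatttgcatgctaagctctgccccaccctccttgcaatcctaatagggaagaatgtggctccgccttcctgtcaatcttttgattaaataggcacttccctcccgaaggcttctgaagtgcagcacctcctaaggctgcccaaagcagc
Acp2: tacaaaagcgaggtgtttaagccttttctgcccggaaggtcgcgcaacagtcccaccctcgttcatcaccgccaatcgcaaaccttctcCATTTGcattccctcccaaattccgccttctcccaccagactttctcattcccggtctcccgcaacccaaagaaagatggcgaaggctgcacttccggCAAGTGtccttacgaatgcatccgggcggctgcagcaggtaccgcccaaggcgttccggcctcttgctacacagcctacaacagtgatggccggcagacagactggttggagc

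The window of the third Acp5 start holds 2 E-boxes and 2 NFAT cores. The E-box CACATG at -90 to -85 from the start is also a match to the longer M-box TCATGTG on the other strand, the form of E-box that MITF favours. An M-box match was present in 3.77% of 32851 promoter windows of the same length, an E-box in 72.3% and an NFAT core in 61.3%. The first Acp5 window has 2 E-boxes and 1 NFAT core, the second 1 of each, and neither has an M-box. The Acpp window holds 0 E-boxes and 2 NFAT cores, at -233 to -229 and -212 to -208. The Acp2 window has 2 E-boxes and no NFAT core, and the Acp1 window, chr12:30911563-30911862 on the minus strand, has neither. No window of the 4 genes matched the AP-1 site TGANTCA (7.81% of all windows), the PU.1 core GAGGAA (28.3%) or the TATA box TATAAA (13.6%). These matches describe letters, not binding.

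The windows also differed in their content of CpG dinucleotides. The Acp1 window held 29 CpG and 67% G or C and the Acp2 window 19 CpG and 57%, against a median of 7 CpG and 52.7% over all windows. The Acpp window held 6 CpG and the 3 Acp5 windows 4, 17 and 7.

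**Figure D1:**
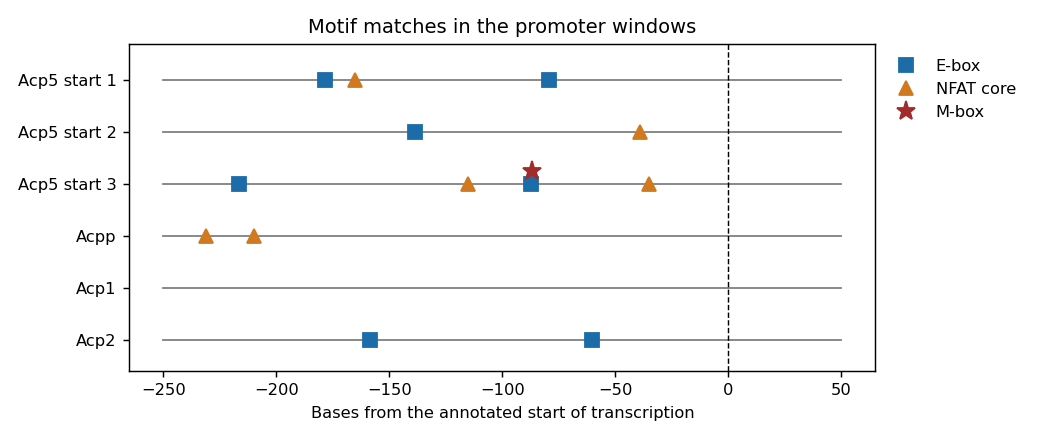
Positions of motif matches in the promoter windows of the 4 genes, in bases from each annotated start of transcription (dashed line), 1 row per start. Squares are E-boxes, triangles NFAT cores and the star the M-box, which appears in the window of the third Acp5 start and in no other window shown. Matches to the NF-kB site are not drawn.

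Acp5 was lower in the mutant cultures by the widest margin among the acid phosphatases. Its single probe set, 1431609_a_at, read 505, 219.5 and 818 on mutant arrays 1, 2 and 3, against 4462, 3745 and 9497 on wild-type arrays 1, 2 and 3. The highest mutant value lay well below the lowest wild-type value, so the groups did not overlap. Mutant arrays averaged 514 ± 299, against 5901 ± 3135 for wild-type arrays (SD, n = 3 per group), a difference of -3.54 on the log2(intensity + 16) scale, or 11.6-fold lower. The limma standard error of this difference was 0.59, and 0.20 with the assay as a block. Within assays 1, 2 and 3 the log2 difference was -3.103, -3.997 and -3.512, so Acp5 was at least 8-fold lower in every assay, as 5 probe sets were in all. It held the fifth lowest difference of all 22497 probe sets, after 2 probe sets of the protease gene Mmp9 and those of the cathepsin gene Ctsk and the chemokine gene Cxcl3, and 5 probe sets in all were at least 10-fold lower on the mean. By assay, its rank from the lowest difference was 7, 6 and 9. The single Acp5 probe set cannot tell which of the 3 starts its transcripts used.

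The Acp5 level also varied between assays, in the same order in both groups. Assay 2 gave the lowest and assay 3 the highest array of each group. The SD of the log2 values was 0.92 among mutant arrays and 0.71 among wild-type arrays, against 0.45 for the 3 differences within assays. Whether levels differed between the assays is a question separate from the contrast by which the genes were chosen, and limma's F test of the replicate number, with the group in the model, gave an adjusted p of 0.0407 for Acp5. By this test 23.3% of all probe sets passed, and Acp5 was the 1 of the 10 acid phosphatase probe sets that did. The test depends on the filter: without it 259 probe sets passed in place of 5251, and Acp5 was not among them (limma, adjusted p = 0.204).

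Acpp, the prostatic acid phosphatase gene, was dim and lower in the mutant. Its brightest probe set, 1441975_at, read 43.0, 62.3 and 46.3 on mutant arrays 1, 2 and 3, against 156.6, 199.9 and 123.2 on wild-type arrays 1, 2 and 3. All mutant values lay below all wild-type values. Mutant arrays averaged 50.5 ± 10.4, against 159.9 ± 38.4 for wild-type arrays (SD, n = 3 per group), a log2 difference of -1.39 with a limma standard error of 0.21, or 0.11 with the assay as a block. Within assays 1, 2 and 3 its intensity + 16 was 2.93-fold, 2.76-fold and 2.24-fold lower, which understates the folds of the intensities themselves. Its difference ranked 43 from the lowest. As its intensities are not far above the pseudocount of 16, the size depends on that choice: the log2 difference was -1.63 with a pseudocount of 1 and -0.96 with 64. In contrast to Acp5, Acpp was highest in assay 2 in both groups, and the assay test gave an adjusted p of 0.115 (limma).

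The other 2 Acpp probe sets stayed near the floor and did not pass the filter. One, 1453943_a_at, read 4.89 to 5.09 on the mutant arrays, against 14.1, 5.11 and 24.3 on wild-type arrays 1, 2 and 3, so it rose above the array medians, which were 8.86 to 9.38, on wild-type arrays 1 and 3 alone. The other, 1419832_s_at, read 5.55 to 5.67 on the mutant arrays, against 5.87, 5.60 and 13.1 on wild-type arrays 1, 2 and 3. The size of a difference this close to the floor is not interpreted. Averaged over its 3 probe sets, Acpp had a log2 difference of -0.68.

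**Figure D2:**
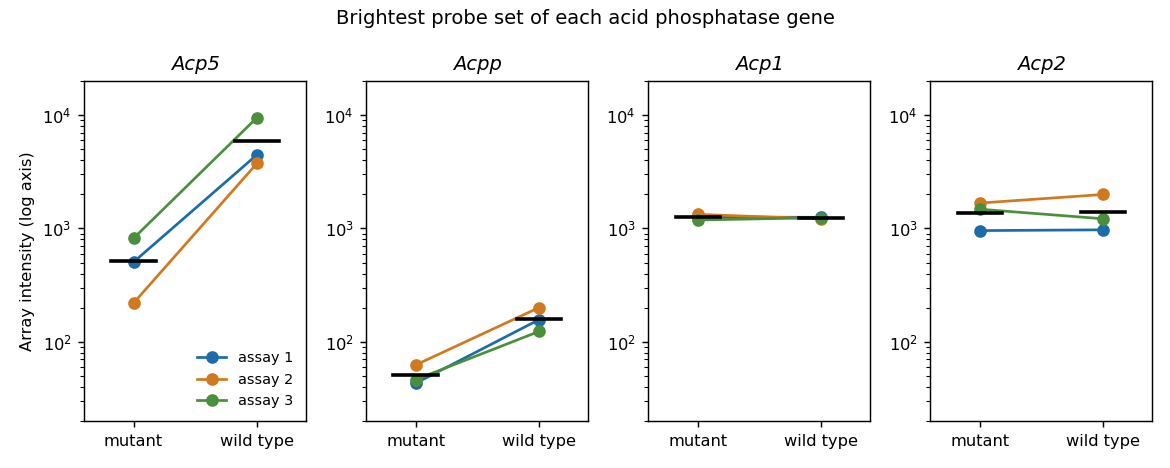
Intensity (log axis) of the brightest probe set of each gene on the 3 mutant and 3 wild-type arrays, with lines joining arrays of the same assay and black bars at group means. The 3 Acp5 lines and the 3 Acpp lines run from low mutant to high wild-type values, while the Acp1 and Acp2 groups overlap. Probe sets differ in brightness for reasons of design, so levels are not compared between panels.

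Acp2, the lysosomal enzyme gene, showed overlapping groups on all 3 of its probe sets. The brightest, 1436788_at, read 957, 1675 and 1478 on mutant arrays 1, 2 and 3, against 972, 1994 and 1217 on wild-type arrays 1, 2 and 3. Its log2 difference was 0.00 with a standard error of 0.34, and 0.13 with the assay as a block. The other 2 differed by -0.14 ± 0.26 and -0.16 ± 0.25 (SE). The direction depended on the assay: in assay 2 the 3 probe sets were lower in the mutant, by -0.25, -0.62 and -0.67, and in assay 3 higher, by 0.28, 0.28 and 0.18. In assay 1 they differed by -0.02, -0.08 and 0.01. For the brightest Acp2 probe set assay 1 held the lowest and assay 2 the highest array of each group, and the assay test gave an adjusted p of 0.0515 (limma), on the edge of the threshold. Over the alternatives it ran from 0.031 with a filter at the 70th percentile to 0.211 with no filter, with 0.0477 after quantile normalization, 0.0554 with a pseudocount of 1 and 0.06 with 64.

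Acp1, the low molecular weight tyrosine phosphatase gene on chromosome 12 (30893326 to 30911619), was nearly level across the arrays on its brightest probe set and less so on others. The brightest, 1450721_at, read 1260, 1331 and 1187 on mutant arrays 1, 2 and 3, against 1253, 1214 and 1244 on wild-type arrays 1, 2 and 3. The mutant values enclosed all wild-type values. The log2 difference was 0.02 with a standard error of 0.09, and the 3 assays gave 0.01, 0.13 and -0.07. The assay test gave an adjusted p of 0.880 (limma). A second probe set, 1450720_at, differed by 0.06 ± 0.12 (SE) and another, 1422715_s_at, which ranged from 528.5 to 962 on mutant arrays and from 667 to 896 on wild-type arrays, by -0.03 ± 0.26 (SE).

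One Acp1 probe set went apart from the others. The probe set 1422716_a_at read 478, 524 and 207 on mutant arrays 1, 2 and 3, against 263, 320 and 318 on wild-type arrays 1, 2 and 3. It was thus higher in the mutant in assays 1 and 2, by 0.82 and 0.68 on the log2 scale, and lower in assay 3, by -0.58. Its mean difference was 0.31 ± 0.37 (SE) and the groups overlapped. In assay 3 it had the 673rd lowest of all pair differences, while 1450721_at and 1450720_at, which read the same gene, differed there by -0.07 and 0.26. The remaining 2 Acp1 probe sets were dim, at 29.6 to 34.5 on mutant arrays, against 30.5 to 31.2 on wild-type arrays for 1422717_at, and at 4.45 to 4.52 on mutant arrays, against 4.46 to 4.56 on wild-type arrays for 1449604_at, which did not pass the filter.

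**Figure D3:**
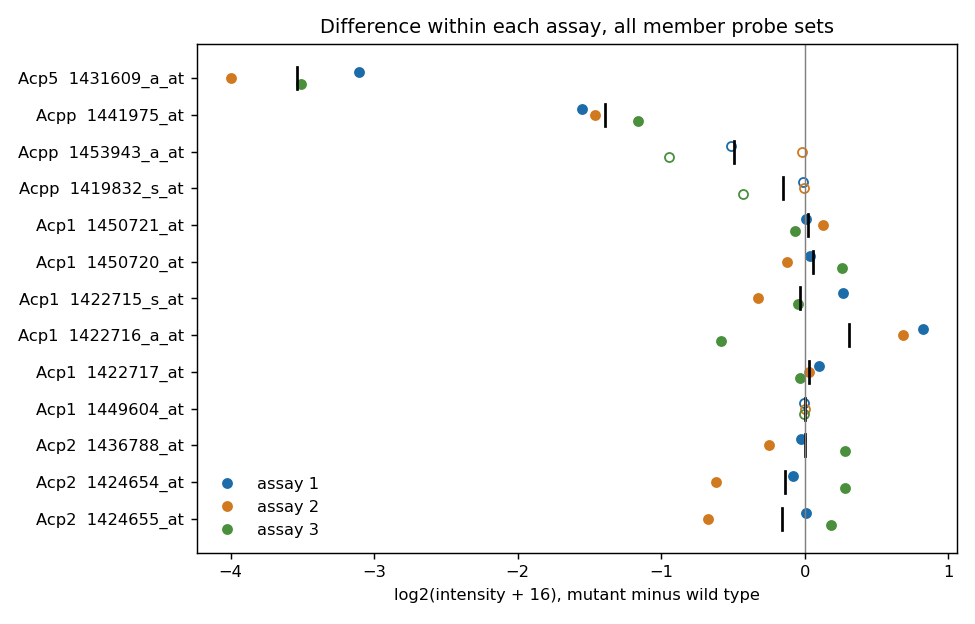
Difference of log2(intensity + 16), mutant minus wild type, within each assay (circles) and on the mean (bars) for the 13 acid phosphatase probe sets. Open circles mark the 3 probe sets that did not pass the filter on dim signals. The circles of Acp5 and of the brightest Acpp probe set lie left of 0 in all 3 assays, and those of the Acp1 and Acp2 probe sets that passed the filter lie on both sides of it.

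Of the 10 probe sets that passed the filter, 2 had no overlap between the groups, those of Acp5 and Acpp, each lower in the mutant. Over all probe sets 1.59% had no overlap and were lower. The same 2 were lower in every same-numbered pair, as were 11.7% of all probe sets, and at least 2-fold lower on the mean, as were 0.418%. The remaining 8 had mixed directions over the 3 assays. Because the genes were chosen by this contrast, nothing is read from these counts. By limma, 0 of the 22497 probe sets passed an adjusted p of 0.05 for mutant against wild type, which is 0%, and 198 had an unadjusted p under 0.05. The same fit with the assay as a block called 0, with 1189 at an unadjusted p under 0.05.

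**Figure D4:**
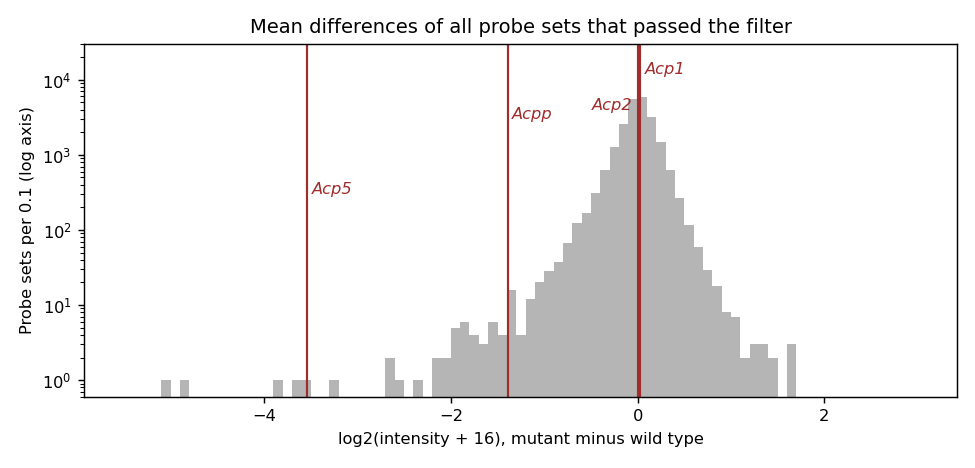
Number of probe sets (log axis) by mean difference of log2(intensity + 16), mutant minus wild type, for the 22497 probe sets that passed the filter, in steps of 0.1. Vertical lines mark the brightest probe set of each acid phosphatase gene: Acp5 at -3.54 and Acpp at -1.39 lie in the left tail, Acp2 at 0.00 and Acp1 at 0.02 in the centre.

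Other genes with acid phosphatase activity or an acid phosphatase fold were looked up by symbol. Of the 4 genes found, 3 passed the filter, and 0 of the 3 passed the limma test in either direction. No probe set of the array passed that test, which has no block, with 0.99998 as the smallest adjusted p (limma). That fit leaves the spread between assays in its error. With the assay as a block 0 passed as well, and the smallest adjusted p was 0.0792 (limma). The count of 0 for this list and for each list below therefore says nothing particular about its genes. The median log2 difference of the 3 was 0.11, where that of all 10372 genes tested was 0.01. Acp6, the lysophosphatidic acid phosphatase of mitochondria, read 128.8 to 158.0 on mutant arrays, against 157.4 to 171.5 on wild-type arrays, and differed by -0.13 ± 0.11 (SE). Minpp1, which removes phosphate from inositol polyphosphates, differed by 0.11 ± 0.16 (SE). A dimmer Minpp1 probe set, 1455787_x_at, differed by 0.293, 0.239 and 0.172 in assays 1, 2 and 3. Pxylp1, a phosphatase of xylose in proteoglycan linkers, read 86.5, 96.4 and 73.5 on mutant arrays 1, 2 and 3, against 44.2, 40.7 and 90.2 on wild-type arrays 1, 2 and 3. It was higher in the mutant in assays 1 and 2, by 0.77 and 0.99, and lower in assay 3, by -0.25. A dimmer Pxylp1 probe set, 1429390_at, read 13.7 to 26.4 on mutant arrays, against 11.5 to 13.9 on wild-type arrays. It differed by 0.355, 0.625 and 0.018 in assays 1, 2 and 3. Acp7 stayed near the floor, at 4.77 to 4.81 on mutant arrays, against 4.75 to 4.86 on wild-type arrays, and Acp4 was not analysed here.

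Acp5 protein is activated by cleavage, which cathepsins can perform, and cathepsin K is made by the same cells. Of the 4 genes of this group tested 0 passed the limma test. Ctsk was named with its difference in this contrast known, so its values are a description without a test. Ctsk read 193, 752 and 105.5 on mutant arrays 1, 2 and 3, against 3114, 2354 and 7375 on wild-type arrays 1, 2 and 3. Its groups did not overlap, but its order over the mutant arrays ran opposite to that of Acp5: mutant array 2 was the highest for Ctsk and the lowest for Acp5. In assay 2 Ctsk differed by -1.63 and Acp5 by -3.997 on the log2 scale, and in assay 3 Ctsk by -5.93 and Acp5 by -3.51. The macrophage cathepsin genes Ctsb, Ctss and Ctsl differed by -0.03 ± 0.12, -0.01 ± 0.10 and 0.07 ± 0.13 (SE). Spp1, which encodes the Acp5 substrate osteopontin, was not analysed here, and Ibsp did not pass the filter.

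Acp5 and Acp2 both remove the mannose 6-phosphate tag by which enzymes are sorted to lysosomes. Of the 6 genes of that tag 0 passed the limma test. By their brightest probe sets, 2 were lower and 4 higher on the mean, and the median log2 difference was 0.01. M6pr and Igf2r, which encode the receptors for the tag, differed by -0.23 ± 0.14 and -0.50 ± 0.31 (SE). By the brightest probe sets M6pr was the 1 gene of the 6 that was lower in every pair, as were 12.0% of all genes. Gnptab, which encodes the enzyme that makes the tag, differed by 0.19 ± 0.26 and Nagpa, which uncovers it, by 0.02 ± 0.48 (SE). The sorting receptor gene Sort1 differed by 0.00 ± 0.41 (SE). Dimmer probe sets did not all go the same way. Those of Gnptab, 1456620_at and 1452461_a_at, differed by -0.10 and -0.14, and those of Sort1, 1450955_s_at and 1423363_at, by 0.07 and -0.385. The dimmer probe sets of M6pr, 1416386_a_at, and Igf2r, 1424111_at, differed by -0.435 and -0.368. Both were lower in every pair, as were 1423363_at of Sort1 and 11.7% of all probe sets.

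Of 12 genes for transcription factors known to act on the Acp5 promoter, 0 passed the limma test, 7 were lower and 5 higher on the mean by their brightest probe sets, and the median log2 difference was -0.03. Mitf, whose factor binds the E-box type described above, read 1933, 2317 and 3007 on mutant arrays 1, 2 and 3, against 2548, 1462 and 3005 on wild-type arrays 1, 2 and 3. Its log2 difference was 0.09 ± 0.32 (SE). Spi1, which encodes PU.1, differed by -0.06 ± 0.25, Fos by -0.23 ± 0.62, Jun by 0.21 ± 0.36 and Jund by -0.06 ± 0.11 (SE). The brightest probe set of Nfatc1, the factor that leads osteoclast formation, differed by 0.02 ± 0.10 (SE), which put the gene among the 5 higher ones. Its other 4 probe sets were all lower in the mutant in every pair without overlap, by -1.03, -0.91, -0.71 and -0.16, and that with -0.71 did not pass the filter. Those with -0.91, -0.71 and -0.16 lay near the floor, at 7.2 to 16.3 on mutant arrays, against 8.6 to 52.3 on wild-type arrays. The size of their differences is not interpreted. The one with -1.03, 1417621_at, read 312, 274 and 170 on mutant arrays 1, 2 and 3, against 478, 536 and 540 on wild-type arrays 1, 2 and 3. The probe sets of Nfatc1 thus disagreed, and the count for the list rests on the brightest. Tfec, a relative of Mitf named after its values were seen, was the 1 of the 12 whose brightest probe set had no overlap between the groups, against 1.96% of all genes. Tfec read 312, 317 and 427 on mutant arrays 1, 2 and 3, against 445, 616 and 617 on wild-type arrays 1, 2 and 3, a log2 difference of -0.64 ± 0.20 (SE).

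The genes most like Acp5 and Acpp over the 6 arrays were found by the root mean square difference of log2(intensity + 16) after each gene's own mean was taken off. Profiles were not scaled, so this distance also holds the size of the difference between the groups. As Acp5 and Acpp were chosen by that difference, the genes found near them partly restate it. For Acp5 they were Traf1 (0.56), Cxcl3 (0.753), Mmp9 (0.799), Mcemp1 (0.858) and Car2 (0.908). Car2 lay near the floor on mutant arrays, at 7.1 to 9.4, against 49.9 to 575.9 on wild-type arrays. Traf1 encodes an adaptor of TNF receptor signalling and read 47.7, 23.7 and 61.0 on mutant arrays 1, 2 and 3, against 215, 227 and 815 on wild-type arrays 1, 2 and 3. Like Acp5 it was lowest on mutant array 2 and highest on wild-type array 3. Mmp9 differed by -5.07 in assay 1, -5.18 in assay 2 and -4.38 in assay 3. Mcemp1, a membrane protein gene, read 45.2, 9.4 and 78.3 on mutant arrays 1, 2 and 3, against 128, 114 and 335 on wild-type arrays 1, 2 and 3.

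For Acpp the genes were 2610528A11Rik (0.315), Mt2 (0.369), Gpr132 (0.37), Avpi1 (0.374) and Gpc1 (0.376). Mt2 encodes a metallothionein, a small protein that binds zinc and other metals, and read 615, 480 and 399 on mutant arrays 1, 2 and 3, against 1056, 1258 and 1482 on wild-type arrays 1, 2 and 3. Avpi1 read 171, 186 and 194 on mutant arrays 1, 2 and 3, against 268, 389 and 342 on wild-type arrays 1, 2 and 3, and like Acpp it was highest on wild-type array 2. Gpr132, a G protein-coupled receptor gene, lay near the floor in the mutant, at 6.2 to 12.4, against 21.6 to 30.2 in the wild type. The difference between the Acp5 and Acpp profiles themselves was 1.38, so neither gene was among the most like of the other. Part of this distance is the unlike size of their group differences, -3.54 for Acp5 and -1.39 for Acpp. These distances are descriptions over 6 arrays that share 3 assays.

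**Figure D5:**
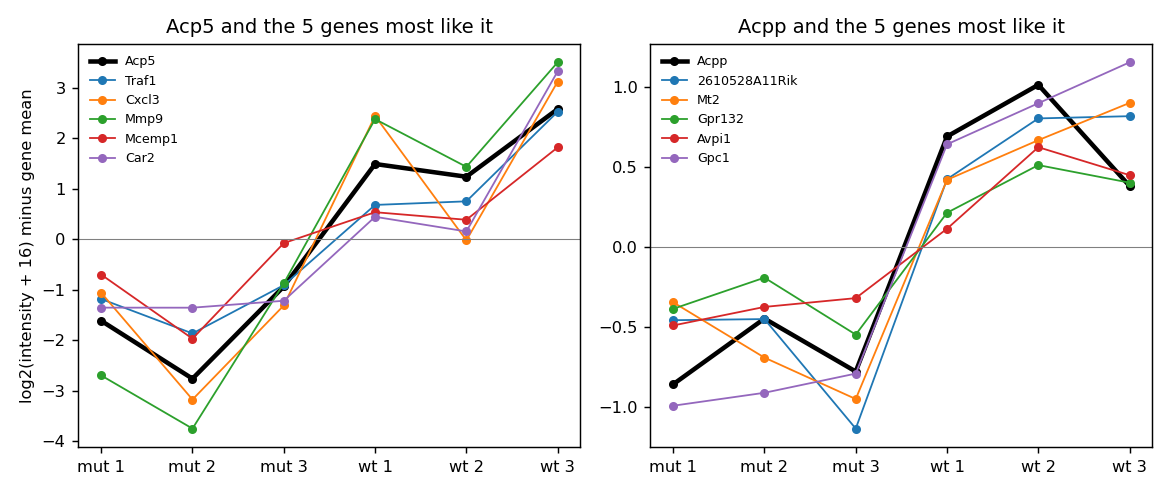
log2(intensity + 16) minus each gene's mean on the 3 mutant (mut) and 3 wild-type (wt) arrays, for Acp5 (left, black) and Acpp (right, black) with the 5 genes closest to each. Acp5 is lowest on mutant array 2 and highest on wild-type array 3, and Acpp is highest on wild-type array 2.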

How the data were processed

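Linear intensities of probe sets, as the authors deposited them, were the starting point. They came from GCOS and GCRMA, per the submitters' processing notes, which give no versions and no order of the steps. Array 75th percentiles were 160 to 164, so no further normalization was applied. GCRMA presses dim probe sets towards a floor, which bounds what can be said of values near the array medians.

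Groups and replicate numbers came from sample titles. Control probe sets were left out, and 45037 of 45101 remained. Values were taken as log2(intensity + 16), so folds of dim genes are understated. Mutant minus wild type was fitted over the 22497 probe sets above their array's 50th percentile on at least 3 arrays, with limma 3.58.1 in R 4.3.3, two-sided, without a block, adjusted by Benjamini-Hochberg with a threshold of 0.05. Standard errors of differences come from the fit without a block unless the block is named, so they also hold the spread between assays. For Nagpa the standard error was 0.48 without the block and 0.10 with it. A limma F test of the replicate number, with the group in the model, compared the assays. Deviations of same-numbered arrays from their group means correlated at 0.797, 0.671 and 0.845, so same-numbered arrays were treated as pairs, which fits the labels' 3 independent assays. The fits were also run on simulated data, with normal noise drawn from the fit with the block. Such data meet the model by design, so this checks the calculation and not whether the model suits these arrays.

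Names came from the platform annotation and RefSeq. The members, the gene lists and the rule for named genes were chosen with earlier results of these data known. Named were all acid phosphatase probe sets, up to 5 brightest genes of each list, a few fixed genes (such as Ctsk, Mitf and Nfatc1) and the 5 genes of most like pattern for Acp5 and Acpp. Proteins were not printed. The alternatives were pseudocounts of 1 and 64, quantile normalization, no filter or a 70th percentile filter, the mean of a gene's probe sets, the replicate block and leaving out arrays.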

Additional observations from a re-analysis of the deposited data

How the results depend on the processing

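The number of arrays limits all values, and dim probe sets are bounded by the floor of the intensities. The Acp5 difference kept its sign in all alternatives, and leaving out arrays moved it between -3.96 and -3.04. The Acpp difference was -1.63 with a pseudocount of 1, -0.96 with a pseudocount of 64 and -0.68 as the mean of its 3 probe sets, and the Acp2 difference lay between -0.22 and 0.29 when arrays were left out. The Acp1 difference lay between -0.03 and 0.07 when arrays were left out. The replicate block leaves the differences at -3.54 for Acp5, -1.39 for Acpp, 0.02 for Acp1 and 0.00 for Acp2, and limma called 0 probe sets for mutant against wild type with the block as a fixed term, as without it, but 1 with the block as a random effect. In all other alternatives limma called 0. The count of 357 probe sets without overlap and lower in the mutant was 209 with the filter at the 70th percentile, where fewer probe sets are tested, and 862 to 2483 with arrays left out, where fewer values need to be separate. The 5251 probe sets that differed between assays became 259 with no filter. Leaving out both arrays of an assay, and the alternatives for the assay test of single genes, were added after the data were seen.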

Other observations

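Acpp protein on the cell surface can form adenosine, and genes of adenosine formation and uptake were looked at beside it. Of the 3 tested, 0 passed the limma test. Entpd1, which encodes the CD39 ectonucleotidase that makes AMP, read 337, 547 and 777 on mutant arrays 1, 2 and 3, against 384, 459 and 674 on wild-type arrays 1, 2 and 3. This probe set stood in the same order over the assays in both groups, while another, 1453586_at, was highest in assay 2 in both. The limma test between assays, which 23.3% of all probe sets passed, gave adjusted p-values of 0.0398 for Entpd1, 0.0632 for Ada and 0.332 for Slc29a1. Slc29a1, a nucleoside transporter gene, differed by -0.09 ± 0.23 and the adenosine deaminase gene Ada by 0.10 ± 0.20 (SE). Nt5e, which encodes the ectonucleotidase CD73, did not pass the filter. Its brightest probe set read 30.2, 8.03 and 8.43 on mutant arrays 1, 2 and 3, against 6.87 to 7.65 on wild-type arrays.

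Acp1 acts on phosphotyrosine, as do the cytosolic tyrosine phosphatases of the PTPN family. Of 8 such genes tested 0 passed the limma test, 4 were lower and 4 higher on the mean, and the median log2 difference was -0.02. Ptpn6, which encodes the SHP-1 phosphatase of blood cells, differed by 0.07 ± 0.10, Ptpn12 by -0.21 ± 0.20, Ptpn1 by -0.19 ± 0.21, Ptpn18 by 0.03 ± 0.24 and Ptpn11 by 0.11 ± 0.14 (SE). Ptpn22, a phosphatase gene of immune cells named after its values were seen, read 196, 166 and 109 on mutant arrays 1, 2 and 3, against 290, 240 and 217 on wild-type arrays 1, 2 and 3. The Ptpn22 groups did not overlap, as was so with a lower mutant for 1.96% of all genes, and its log2 difference was -0.64 ± 0.23 (SE).

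Of 5 tested genes for phosphatases and phosphodiesterases with a metal centre of the broad type that Acp5 has, 0 passed the limma test and the median log2 difference was -0.13. Among all 10372 genes, 1247 were lower in each of the pairs and 1502 were higher in each. Smpd1, which encodes acid sphingomyelinase of the lysosome, was lower in every pair, by -0.20, -0.14 and -0.20 in assays 1, 2 and 3. Cpped1 was also lower in every pair, by -0.17, -0.46 and -0.13. Smpdl3b was higher in every pair, by 0.50, 1.18 and 0.76, but read 130.2 to 335.6 on mutant arrays, against 70.2 to 232 on wild-type arrays, so its groups overlapped. Smpdl3a differed by -0.13 ± 0.24 and Mppe1 by -0.03 ± 0.26 (SE).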
